A study of Mus musculus with 2 samples.

Results

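Slc3a2 encodes the heavy chain of a family of amino acid exchangers, and the genes described here are Slc3a2 and the light chains that pair with it. The 6 genes Slc3a2, Slc7a11, Slc7a5, Slc7a6, Slc7a7 and Slc7a8 were looked up by symbol, and 4 of them were among the 14197 genes of the deposited table. Slc7a7 and Slc7a8 were not listed in it. The group was chosen by family membership with the RPKM of these libraries already known, so its values are given as a description. 4T1 cells, a murine mammary carcinoma line labelled wild type, were kept for 24 h in astragalin (AS), a plant flavonoid, or in its vehicle. The dose given to the sequenced cells is not stated in the sources used here. There was 1 RNA-seq library of each, and both came from the same line with no further treatment named. The methods also describe 4T1 cells carrying a luciferase construct, and whether the sequenced cells carried it is not stated. With 1 library per condition there is no replicate spread, no p-value is given, and every interval below covers counting error only.

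A heteromeric exchanger is a heavy chain, which carries no transport pore and brings the complex to the cell surface, linked to a light chain of the SLC7 family, which moves the amino acids. The light chain sets what is carried. LAT1 (Slc7a5) brings in leucine and other large neutral amino acids in exchange for glutamine, xCT (Slc7a11) brings in cystine in exchange for glutamate, and y+LAT2 (Slc7a6) exchanges arginine for neutral amino acids. Cystine feeds the synthesis of glutathione, and leucine is read by the mTORC1 pathway. The transcription factors ATF4 and NRF2 are known to raise Slc7a11, and ATF4 acts through the amino acid response element.

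The promoter of Slc7a11 is shown because it holds that element in both directions. RefSeq promoters (GRCm38.p6) were found for 5 of the 6 genes, with none for Slc7a5, and the 250 bases before each start were searched on both strands for the amino acid response element TGATGNAA and for the antioxidant response element TGACNNNGC, which NRF2 binds. The promoter of Slc7a6 is shown beside it as that of the light chain whose level was nearly equal in both libraries. Each was picked for that feature, so the pair is not a comparison of element with level. The windows shown also differ in GC content, at 43.2% for Slc7a11 and 74% for Slc7a6. Any part of the element in the levels was not tested. Both sequences run 5′ to 3′ on the strand of the gene, and capitals mark matches to either element.
Slc7a11 (chr3:50443614-50443863, minus strand): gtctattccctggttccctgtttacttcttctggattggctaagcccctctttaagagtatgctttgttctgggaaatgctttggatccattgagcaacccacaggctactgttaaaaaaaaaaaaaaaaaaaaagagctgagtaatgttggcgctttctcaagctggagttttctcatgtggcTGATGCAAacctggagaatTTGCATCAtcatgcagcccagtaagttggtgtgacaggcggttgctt
Slc7a6 (chr8:106168604-106168853, plus strand): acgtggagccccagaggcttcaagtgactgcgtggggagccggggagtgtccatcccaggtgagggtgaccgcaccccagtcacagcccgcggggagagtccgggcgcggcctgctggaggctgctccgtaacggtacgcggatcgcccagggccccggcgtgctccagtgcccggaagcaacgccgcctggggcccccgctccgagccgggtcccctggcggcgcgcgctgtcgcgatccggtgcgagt
In Slc7a11 the first match, TGATGCAA, lies 66 to 59 bases before the start, and the second, TTGCATCA, is the same element on the other strand, 47 to 40 bases before it. A match to this element was present in 3.45% of the 32851 RefSeq promoters, and more than 1 match in 0.0396% of them (13 promoters). The antioxidant element had no match in the window of Slc7a11, and 10.2% of all promoters held one. Only the form TGACNNNGC was searched, so a looser form of that element would not be marked in any window. The window of Slc3a2 held neither element. RefSeq lists 1 promoter for Slc3a2, while the GENCODE M21 annotation gives the gene 9 transcripts with several starts, and the bases before the others were not searched. The window of Slc7a6 shown above held neither element, and that of its other RefSeq start held 1 antioxidant match, TGACGTGGC. Of the genes not listed in the table, Slc7a7 held the amino acid response element in 2 of its 5 RefSeq promoters, and Slc7a8 held neither element. A match says only that the letters are there.

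Slc3a2, the heavy chain also known as CD98 or 4F2, was the most abundant of the 4 genes in both libraries. RPKM scales the reads of a gene by its exon length in kilobases and by the total of the library, so that levels of genes of different length can be set side by side. It reached an RPKM of 99.6 under AS against 36.8 under vehicle (15792 against 6603 reads). The level was 2.71-fold higher with AS, with a 95% Clopper-Pearson interval of the reads from 2.63 to 2.79. The log2 fold change, taken throughout with 0.1 RPKM added to both values, was 1.43. It was number 22 of the 14197 genes by log2 fold change, and in level it stood at number 1475 with the vehicle and number 502 with AS. In GENCODE M21 (GRCm38) the gene occupies chromosome 19, bases 8706882 to 8723369, minus strand, and no other annotated gene overlaps it. In RNA from a whole culture, a higher level in each cell and a larger share of cells that express the gene cannot be told apart.

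Slc7a5, the LAT1 light chain, had the highest level of the light chains in both libraries. It stood at an RPKM of 45.03 under AS (7499 reads) against 17.5 under vehicle (3292 reads). The ratio of the RPKM was 2.58, with an interval from 2.47 to 2.69, and the log2 fold change was 1.36, number 28 of all genes. The fold of Slc3a2 was 1.05 times that of Slc7a5, with an interval from 0.998 to 1.10, so the counting error alone covers the difference between the heavy chain and its main light chain. Slc7a5 occupies chromosome 8, bases 121881150 to 121907694, minus strand. A longer gene model on the other strand, Gm20388, spans it without sharing exon bases.

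Slc7a11, the xCT light chain, was the lowest of the 4 genes with the vehicle and had the highest log2 fold change of the table towards AS. Its level was 6.31 RPKM under AS against 0.478 under vehicle (3944 against 338 reads). The ratio of these values was 13.2, with an interval from 11.8 to 14.8, and the log2 fold change was 3.47. Among all genes it moved from number 13329 by level to number 6281, so that even with AS it was not a highly expressed gene, and the median gene of the table had an RPKM of 5.10 in that library. Its fold was 5.12 times that of Slc7a5 (interval from 4.55 to 5.78). The gene occupies chromosome 3, bases 49892526 to 50443614, minus strand. Its RPKM depends on the gene model, since the reads were divided by 13922 exon bases that include retained introns and an exon far downstream, while the longest coding transcript has 9223 bases. Over the longest transcript the level was 9.52 with AS and 0.721 with the vehicle, and the fold was not affected. No other annotated gene shares exon bases with it.

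Slc7a6, the y+LAT2 light chain, was level in both libraries. Its level was 2.18 RPKM under AS against 2.17 under vehicle (447 against 503 reads), which gave a log2 fold change of 0.01 as deposited and of -0.06 under each of the 3 other scalings. The interval of its ratio ran from 0.883-fold to 1.14-fold, which leaves out the folds of the other 3 genes. The fold of Slc3a2 was 2.69 times that of Slc7a6, with an interval from 2.36 to 3.07. Slc7a6 occupies chromosome 8, bases 106168857 to 106198706, plus strand. With the vehicle it was above Slc7a11 in RPKM, and with AS it was below it, and this order held also per base of the longest transcript and per coding base. No value can be given for Slc7a7, the y+LAT1 light chain known from macrophages and epithelia, or for Slc7a8, the LAT2 light chain. The lowest mean over both libraries among the genes with recovered reads was 31 reads, and the filter that left genes out of the table is not stated.

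**Figure D1:**
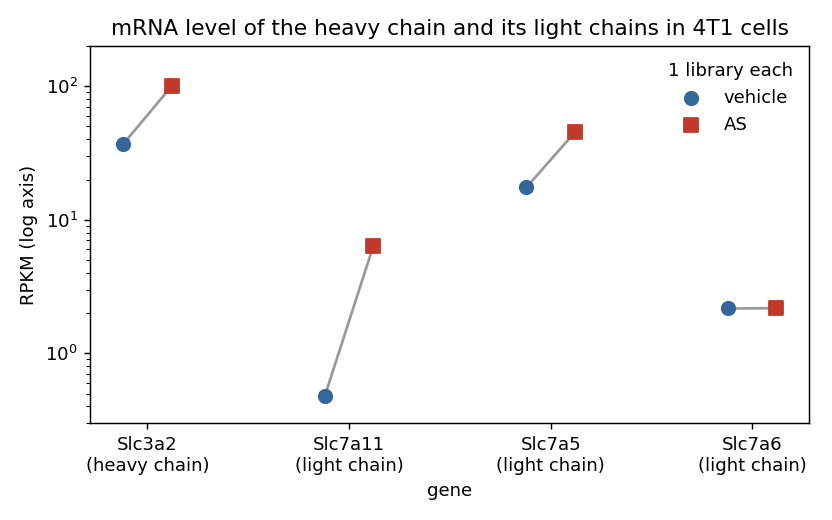
RPKM of the heavy chain and of the 3 listed light chains on a log axis, with a blue circle for the vehicle library and a red square for the AS library (1 library each, no error bars). Slc3a2, Slc7a5 and Slc7a11 were higher with AS (99.6 against 36.8, 45.03 against 17.5 and 6.31 against 0.478), and Slc7a6 was level at 2.18 and 2.17.

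In all, 3 of the 4 listed genes had a log2 fold change above 1, the fold threshold of the study's methods, used here without their FDR limit, and none was below -1. Over the whole table, 0.662% of the genes were above 1 and 0.31% were below -1. Since the group was chosen with this contrast known, nothing is read from that difference. The whole counting interval lay past the threshold for the same 3 genes. At 1.5-fold, the lower threshold in the methods, the count was again 3, where 3.56% of all genes were higher and 2.01% lower by as much.

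**Figure D2:**
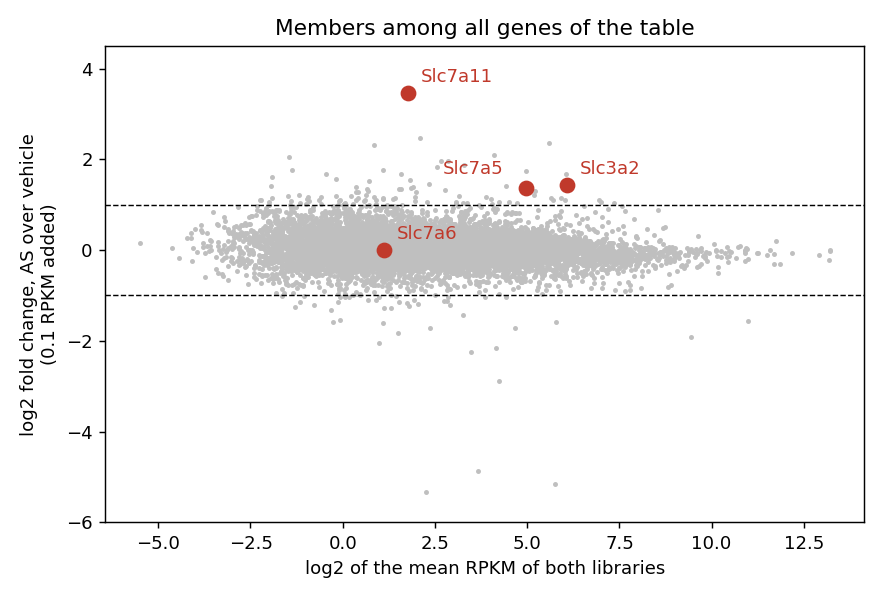
Each grey point is 1 of the 14197 genes, with the log2 of its mean RPKM over both libraries on the horizontal axis, its log2 fold change (AS over vehicle, 0.1 RPKM added) on the vertical axis and dashed lines at 1 and -1. Slc7a11 is the highest point at 3.47, Slc3a2 (1.43) and Slc7a5 (1.36) lie close together at higher levels, and Slc7a6 (0.01) lies within the band of most genes.

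The heavy chain and the summed light chains were higher by nearly the same factor. The light chains summed to 53.5 RPKM under AS against 20.1 under vehicle, 2.66-fold higher, beside 2.71-fold for Slc3a2. There were thus 1.86 heavy chain mRNAs per light chain mRNA with AS (95% interval from the counts, delta method, 1.82 to 1.91) and 1.83 with the vehicle (1.76 to 1.90), counting only the light chains listed. The log2 change of this ratio was 0.02, with an interval from -0.04 to 0.09 that includes 0. Per base of the longest transcript the ratio was 2.10 with AS and 2.12 with the vehicle. Per coding base it was 1.20 and 1.45, a log2 change of -0.27 (interval from -0.34 to -0.21). Without Slc7a11, at the deposited length, it was 2.11 under AS against 1.88 under vehicle, a log2 change of 0.17 (interval from 0.10 to 0.24). Whether the ratio was level thus depends on the length chosen and on counting Slc7a11, and the coding length and the omission of Slc7a11 moved it in opposite directions. The reads were counted over whole exons, and per coding base a gene with long noncoding ends, such as Slc7a11, weighs more.

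Within the light chains the makeup shifted towards Slc7a11. Slc7a5 made up 84.1% of the light chain RPKM with AS and 86.9% with the vehicle. The share of Slc7a11 was 11.8% with AS and 2.38% with the vehicle, and that of Slc7a6 was 4.07% and 10.8%. Of the RPKM by which the light chain sum was higher with AS (33.4), Slc7a5 gave 82.5% and Slc7a11 gave 17.5%. At the deposited length, Slc3a2 was 2.21 times Slc7a5 with AS and 2.11 times with the vehicle, and 15.8 and 77.1 times Slc7a11. Over the longest transcript it was 13.1 and 64.1 times Slc7a11, and per coding base 3.56 and 17.4 times. Over the longest transcript Slc7a5 gave 76.7% and Slc7a11 23.2% of the amount by which the light chain sum was higher. Per coding base Slc7a5 gave 55.2% and Slc7a11 44.7%. The share of Slc7a11 over the longest transcript was 15.96% with AS and 3.31% with the vehicle. Per coding base it was larger, at 33.6% with AS and 8.33% with the vehicle. Reads of whole exons were divided there by coding bases alone. This raises Slc7a11 (13922 exon and 1506 coding bases) more than Slc7a5 (3708 and 1536). Levels of mRNA do not give the makeup of the complexes at the cell surface.

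**Figure D3:**
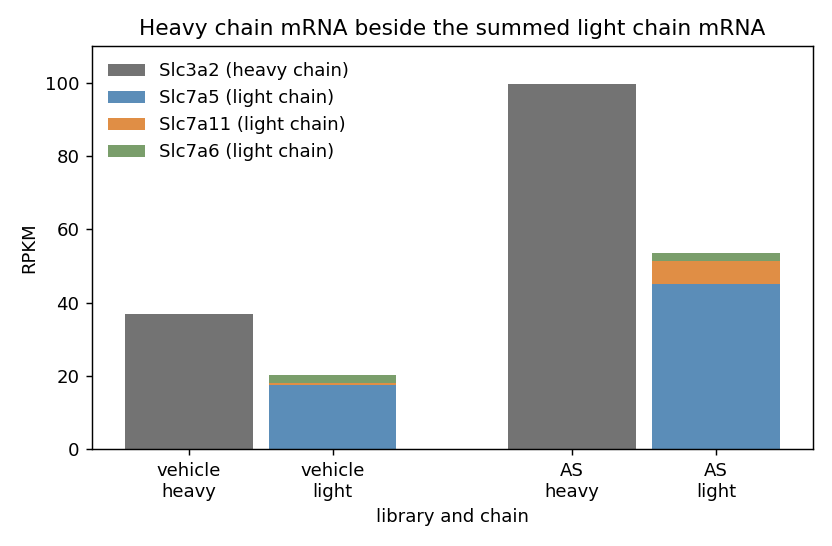
RPKM of Slc3a2 (grey bars) beside the stacked RPKM of Slc7a5, Slc7a11 and Slc7a6 in the vehicle library and in the AS library (1 library each, no error bars). The heavy chain bar is 1.83 times the light chain bar with the vehicle and 1.86 times with AS, and the orange part for Slc7a11 goes from 2.38% to 11.8% of the light chain bar.

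Of the 11 other SLC3 and SLC7 genes, 3 were in the table, and 0 of these were beyond 1 in either direction. The share to set beside this count and those of the lists below is 0.662% of all genes above 1 and 0.31% below -1. These lists were chosen with earlier results of these data known, so nothing is read from their counts. Slc7a1, the cationic amino acid transporter CAT-1, which works without a heavy chain, reached 15.1 RPKM under AS against 8.82, for a log2 fold change of 0.77 (interval of the log2 read ratio from 0.73 to 0.83). Slc3a1, the other heavy chain, known as rBAT, was low and level at 0.971 and 0.944, with a log2 fold change of 0.04 from 99 and 109 reads. Slc7a4 had 48 and 39 reads, a log2 fold change of 0.33 whose interval of the log2 read ratio, from -0.16 to 1.13, is too wide to give a direction.

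Exchangers need substrate on the inner side, and 5 of 14 transporters of such substrates were in the table. The threshold of 1 was passed by 1 of them, Slc1a4, the neutral amino acid exchanger ASCT1, at 9.85 RPKM under AS against 3.88, for a log2 fold change of 1.32 (log2 read ratio from 1.22 to 1.47). Slc1a5, or ASCT2, which brings in the glutamine that LAT1 gives out, was at 3.55 against 2.01 RPKM, for a log2 fold change of 0.79. The sodium-coupled glutamine transporters Slc38a1 and Slc38a2 had log2 fold changes of 0.55 and 0.47. Slc43a2, a carrier of large neutral amino acids that has no heavy chain, stood at 4.11 against 3.89 RPKM (log2 fold change 0.08). The median of these 5 genes was 0.55, beside 0.07 over all genes.

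Around xCT, 11 of the 13 genes listed under cystine to glutathione were in the table. The list also holds genes outside that path, such as Txnrd1, and users of glutathione, such as Gpx4. Their median log2 fold change was 0.25, beside 0.07 over all genes. None was below -1, and 1 was above 1, beside 0.662% of all genes. That gene was Gclc, the catalytic subunit of the enzyme that joins cysteine to glutamate, at 12.3 RPKM under AS against 5.33, for a log2 fold change of 1.19 (log2 read ratio from 1.10 to 1.31). Its partner subunit Gclm was at 0.22, and Gss, which completes glutathione, was at -0.02. Txnrd1, the thioredoxin reductase of the cytosol, was at 50.8 against 27.6 RPKM, for a log2 fold change of 0.88. Cth, which makes cysteine from cystathionine and is thus a source of cysteine other than xCT, was also at 0.88, from 333 and 199 reads. Gpx4, the peroxidase that uses glutathione against lipid peroxides, was level at 65.4 and 64.5.

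Downstream of LAT1, 30 of 32 genes of leucine sensing and mTORC1 were in the table. Their median log2 fold change was 0.11, beside 0.07 over all genes. Above 1 there was 1 of them, beside 0.662% of all genes. This was Lars, the leucyl-tRNA synthetase, at 71.6 against 33.4 RPKM, for a log2 fold change of 1.10. That value is not particular to leucine. Of synthetase genes for other amino acids, picked after their values were seen, Aars was at 1.14, Tars at 0.97 and Nars at 0.96. The mitochondrial synthetase genes Lars2 and Yars2 were lower with AS, at -0.89 and -0.61. Sesn2, a leucine sensor that holds mTORC1 back, had a log2 fold change of 0.75 (RPKM of 2.68 and 1.55), beside -0.03 for Sesn1 and 0.16 for Sesn3. Elsewhere on the list Deptor was at 0.57, while Ddit4 was lower with AS at 42.9 against 53.6 RPKM (log2 fold change -0.32). Of the 30 genes 60% were above 0, beside 60.9% of all genes. The kinase gene Mtor was at 0.08 and its partner Rptor at 0.27. None of the 30 genes was below -1, and the lowest value was -0.36, that of Lamtor4, a scaffold protein at the lysosome.

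Of 15 transcriptional regulators of these transporters, all in the table, 3 had a log2 fold change above 1 and 0 below -1, with a median of 0.49. Over all genes 0.662% were above 1, 0.31% were below -1 and the median was 0.07. The list was chosen with earlier results of these data known and holds Ddit3 and Trib3, so nothing is read from its count. Trib3, a pseudokinase that binds ATF4, had the largest at 2.10, with an RPKM of 27.9 and 6.43. Ddit3, which encodes CHOP, was at 1.68, and Atf3 was at 1.08, with an interval of its log2 read ratio from 0.90 to 1.33. With 1 RPKM added the count above 1 was 2. Atf4 itself was at 123 against 75.5 RPKM, for a log2 fold change of 0.70, and Cebpg, a partner of ATF4 on the amino acid response element, was at 0.85. Nfe2l1, a relative of NRF2 that raises proteasome genes, was at 0.83. Nfe2l2, the gene of NRF2, was at 0.24, its inhibitor Keap1 at -0.01 and its competitor Bach1 at 0.29. These are mRNA levels, and both ATF4 and NRF2 are known to be controlled largely at the protein level.

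The heavy chain also binds other membrane proteins. Of the 9 genes listed as membrane partners 8 were in the table, with 0 beyond 1 in either direction and a median of -0.02. The list also holds genes named here for their tie to a light chain, such as Cd44 and Laptm4b. Itgb1, the integrin beta1 chain that CD98 binds, was at 163 RPKM under AS against 165. Bsg, also known as basigin, was lower with AS at 352 against 443 RPKM, a log2 fold change of -0.33, and Itgb3 was at -0.31. Cd44, which is known to stabilise xCT, was at 0.14, and Laptm4b, which brings LAT1 to lysosomes, was at 0.23.

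**Figure D4:**
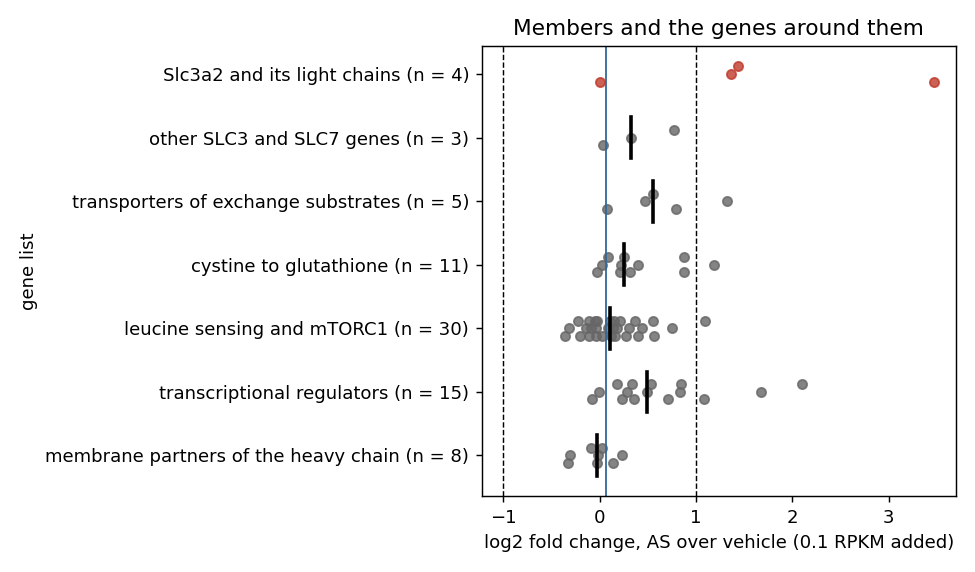
Each point is the log2 fold change (AS over vehicle, 0.1 RPKM added) of 1 gene, by list, with black bars at the median of each list other than the first, a blue line at the median of all genes (0.07) and dashed lines at 1 and -1. The medians run from -0.02 for the membrane partners to 0.55 for the transporters of exchange substrates, and 0 genes lie below -1.

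Among 1203 genes with a vehicle RPKM within 1.5 times that of Slc3a2, the genes closest to it in log2 fold change were Ddit3 (1.68), Aars (1.14) and Nupr1 (1.14), so no other gene of a like level came within 0.24 of it. Aars encodes the alanyl-tRNA synthetase and Nupr1 a stress-induced nuclear protein. Each of these values lay outside the counting interval of Slc3a2, from 1.39 to 1.48 as a log2 read ratio, so the genes are only the nearest. Genes outside that range of vehicle RPKM were not compared. The comparison rests on 2 libraries.

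The library totals behind the RPKM were 44909683 reads for AS and 50820728 for vehicle, and the lowest read count of a member was 338. The median log2 fold change of all genes was 0.07. TMM scaling moved the log2 ratios by -0.07, and by less at low levels because of the 0.1 RPKM added. Mammary epithelial markers were high in both libraries, all 6 being listed, with a summed level of 1764 RPKM under AS against 2278. Their median log2 fold change was -0.43, from -0.73 for Krt19 to 0.17 for Cdh1. Of 7 macrophage markers 5 were listed, with Adgre1 and Aif1 not in the table, Ptprc at 0.116 RPKM under AS against 0.114, and most of the summed level of 29.6 and 33.1 from Cd68. The 4 fibroblast markers listed of 5 summed to 6.08 and 5.67. The part of such shifts in the members' values was not tested.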

How the data were processed

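Stranded mRNA libraries were made from AS-treated and vehicle 4T1 cultures, 1 per condition. The authors deposited 1 table of RPKM by gene and library. Per the labels, the reads went through fastp 0.23.4, STAR 2.5.3a and featureCounts. The labels name the human build GRCh38 although the table lists mouse symbols, and the build and annotation used are not given in the sources used here. The unit was found from the values: RPKM times the summed exon length of GENCODE M21 (GRCm38) times 1 library total gave whole reads (tolerance 0.001) in 94.2% of cases among 13502 genes entered once, the 4 members included. Of the symbols, 673 were absent from that annotation, so coordinates are those of GENCODE M21 and not the authors'. The deposited log2 fold change, mean log2 CPM, p-value and FDR columns were not used. An RPKM made from reads summed over exons spreads reads over retained introns and alternative ends, which lowers genes with long models.

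For fold changes, 0.1 RPKM was added to both values before the log2 ratio, AS over vehicle, which understates low genes, and a gene beyond 1 was called. The plan assumed no test, since there is 1 library per condition. Intervals are 95% Clopper-Pearson intervals of the recovered reads, conditional odds ratios between genes, and a delta-method interval for the heavy to light ratio; reads without molecular identifiers are not independent molecules, so these cover counting error only. Recovery, scaling and intervals were tested on simulated data. The members and lists were chosen with earlier results of these data known. All members were named, and of each list the genes beyond 1 or the 2 with the largest change and those whose role a sentence needs. Markers are given by their summed levels, with a few examples. The alternatives were other added amounts, scalings, thresholds and lengths, and a minimum RPKM of 1. Python 3.11 and scipy 1.17.1 were used. RefSeq coding lengths were not used here.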

Additional observations from a re-analysis of the deposited data

How the results depend on the processing

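No paired analysis was possible because each condition has 1 library. With TMM or median-of-ratios scaling the log2 fold change was 1.37 for Slc3a2 and 1.29 for Slc7a5, and with upper-quartile scaling 1.36 and 1.29. With no amount added that of Slc7a11 was 3.72, and with 1 RPKM added 2.31. The ratio of heavy to light chain mRNA was 2.10 with AS and 2.12 with the vehicle per base of the longest transcript and, chosen after seeing the data, 1.20 and 1.45 per coding base. Without Slc7a11 it was 2.11 with AS and 1.88 with the vehicle. Per coding base the shares with AS were 33.6% for Slc7a11 and 62.7% for Slc7a5, and with the vehicle 8.33%, 79.6% and, for Slc7a6, 12.1%. At a threshold of 1.5-fold the higher genes were 1 of the 3 other SLC3 and SLC7 genes listed and 2 of the 5 transporters of exchange substrates. They were 3 of the 11 genes from cystine to glutathione, 2 of the 30 of leucine sensing and 6 of the 15 regulators. Over all genes 3.56% were higher and 2.01% lower by as much. Nothing is read from these counts, since the lists were chosen with earlier results known. The remaining 53 values moved by less than their counting interval or stayed within 1.5 times the count. Among them, the log2 fold change of Slc7a6 went from 0.01 to -0.06 under the 3 scalings, within its counting interval, and the regulators above 1 went from 3 to 2 with 1 RPKM added. No called value changed direction, and 3 members stayed past the threshold of 1 under every alternative run. The cause of these shifts was not tested beyond the length or amount that defines each. Depth limits the genes with few reads, such as Slc7a4 with 48 and 39. The error between cultures cannot be measured with 1 library each, so its size beside the counting error is not known.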

Other observations

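Among the 179 other solute carriers of the table, picked by symbol after the values were seen, 7 had a log2 fold change above 1 and 0 below -1, with a median of 0.15. Over all genes 0.662% were above 1, 0.31% were below -1 and the median was 0.07. None of the 179 had a log2 fold change above those of Slc7a11, Slc3a2 or Slc7a5, and 130 were above Slc7a6. With AS no other solute carrier had a higher RPKM than Slc3a2, while 6 did with the vehicle. Since the members were chosen with these values known, nothing is read from their place among the 179. The highest log2 fold changes of the 179 were those of Slc25a33, a carrier of pyrimidine nucleotides in mitochondria, at 1.34 (RPKM of 4.31 and 1.64), Slc1a4 at 1.32 and Slc16a8, a monocarboxylate transporter, at 1.16 from only 78 and 33 reads. The lowest was that of Slc39a10, a zinc importer, at -0.98, from 1041 reads under AS against 2353.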
